A study of Mus musculus with 10 samples.

Results

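The nuclear genes for the subunits of oxidative phosphorylation were examined in 6 lists of ChIP-seq peaks from mouse cells with and without *Qk*, the gene of the RNA-binding protein Qki. The genes were the protein-coding genes of chromosomes 1 to 19 and X in the GENCODE M21 annotation whose names begin with Nduf followed by a, b, c, s or v and a digit, with Uqcr, with Cox followed by a digit from 4 to 8, or with Atp5, together with *Sdha*, *Sdhb*, *Sdhc* and *Sdhd*. The rule used names only, and it found 85 of 21755 protein-coding genes. By name, 37 belong to complex I, 4 to complex II, 8 to complex III, 18 to complex IV and 18 to complex V.

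Complexes I to IV pass electrons from NADH and succinate to oxygen along carriers of the inner mitochondrial membrane. Complexes I, III and IV pump protons across the membrane as they do so, and complex V, the ATP synthase, makes ATP from the returning protons. Complexes I, III, IV and V are built from nuclear and mitochondrial gene products, whereas complex II is wholly nuclear. The nuclear genes lie apart on many chromosomes, and their promoters are known as targets of the factors NRF1, GABP and YY1, so they are often read as a scattered but co-regulated set of housekeeping genes. Some subunits also have isoforms that are made mainly in muscle, testis or hypoxic tissue.

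The cells were oligodendrocytes differentiated in culture with triiodothyronine from neural stem cells of FvB/C57BL6 hybrid mice. The study describes stem cells from the brains of newborn *Nestin-CreER* T2;*Qk* L/L pups, which carry an inducible Cre driven by the *Nestin* promoter, with *Qk* deleted in the dish by hydroxytamoxifen. What else the WT cells carried was not given in the labels. The *Qk*-/- and the wild-type (WT) cells were each examined with antibodies against Qki-5, the nuclear isoform of Qki, against RNA polymerase II (Pol II) and against Srebp2, the transcription factor of sterol synthesis. There was 1 library for each antibody and genotype, at passage 7 for Qki-5 and Pol II, with an input shared within a genotype, and at passage 8 for Srebp2. With no replicate libraries, no difference between genotypes could be tested, and a missing peak is a missing call and not a measured loss of binding.

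The lists held 12835 peaks for *Qk*-/- Pol II against 32280 for WT Pol II, 427 for *Qk*-/- Qki-5 against 7539 for WT Qki-5, and 28 for *Qk*-/- Srebp2 against 77 for WT Srebp2. They give no read totals, so depth is unknown. The fold enrichment of a peak over its input was therefore compared within a list only, as a rank among the peaks or as a percentile among the protein-coding genes with a promoter peak in that list. A promoter was the region within 2000 bp of any annotated transcription start site (TSS), and a gene with several promoter peaks took its strongest. The labelled cell type was checked by its markers. Pol II was at the promoters of *Cnp*, *Olig1* and *Olig2* in both genotypes. However, *Mbp*, *Mag*, *Mog* and *Myrf*, which help define mature oligodendrocytes, had no Pol II promoter peak in either list. Nor did *Sox10*, another oligodendrocyte marker. Of the markers of other cells, 4 of 4 for neural stem cells and 3 of 4 for astrocytes carried Pol II in both genotypes, 2 of 3 for oligodendrocyte precursors in *Qk*-/- cells against 3 of 3 in WT cells, 0 of 4 for neurons in *Qk*-/- cells against 1 of 4 in WT cells, and 0 of 4 for microglia in both. The deposited names of the peaks start with mNSC for Qki-5 and Pol II, but with OL for Srebp2. The defining markers of mature oligodendrocytes thus do not bear out the label, and the cells are named below by genotype only. In bulk material such as this, fewer cells with a bound promoter and weaker binding per cell cannot be told apart.

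The promoters below were overlapped, in whole or in part, by a WT Qki-5 peak. They belong to the gene of each complex with the strongest WT Qki-5 peak among those with a RefSeq promoter window (GRCm38.p6, 250 bases before to 50 after the start of the gene). Letters are in capitals where a searched motif matched.
Ndufb5, chr3:32736813-32737112, plus strand: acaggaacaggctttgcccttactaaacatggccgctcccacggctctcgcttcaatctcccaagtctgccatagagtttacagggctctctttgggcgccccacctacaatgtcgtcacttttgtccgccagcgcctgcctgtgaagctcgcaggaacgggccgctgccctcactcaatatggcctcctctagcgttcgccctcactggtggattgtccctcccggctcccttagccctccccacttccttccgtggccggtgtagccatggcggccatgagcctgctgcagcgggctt
Sdhd, chr9:50603800-50604099, minus strand: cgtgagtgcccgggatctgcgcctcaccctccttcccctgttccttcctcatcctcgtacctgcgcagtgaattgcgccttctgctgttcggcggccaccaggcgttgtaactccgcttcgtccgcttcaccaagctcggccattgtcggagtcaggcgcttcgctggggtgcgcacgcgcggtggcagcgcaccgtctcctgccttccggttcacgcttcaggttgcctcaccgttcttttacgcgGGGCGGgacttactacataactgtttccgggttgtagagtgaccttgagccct
Uqcrh, chr4:116075021-116075320, minus strand: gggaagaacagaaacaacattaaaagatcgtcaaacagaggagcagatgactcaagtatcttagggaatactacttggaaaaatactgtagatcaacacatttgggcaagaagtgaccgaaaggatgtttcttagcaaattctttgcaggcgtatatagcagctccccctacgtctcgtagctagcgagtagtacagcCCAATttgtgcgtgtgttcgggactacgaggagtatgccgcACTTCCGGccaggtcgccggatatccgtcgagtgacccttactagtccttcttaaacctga
Cox7a2, chr9:79759804-79760103, minus strand: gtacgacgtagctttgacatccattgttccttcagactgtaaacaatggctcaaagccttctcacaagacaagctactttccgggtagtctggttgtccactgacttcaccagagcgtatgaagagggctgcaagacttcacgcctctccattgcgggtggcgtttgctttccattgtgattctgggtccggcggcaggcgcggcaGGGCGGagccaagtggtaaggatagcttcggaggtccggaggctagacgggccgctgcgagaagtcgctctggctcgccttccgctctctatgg
Atp5g2, chr15:102670998-102671297, minus strand: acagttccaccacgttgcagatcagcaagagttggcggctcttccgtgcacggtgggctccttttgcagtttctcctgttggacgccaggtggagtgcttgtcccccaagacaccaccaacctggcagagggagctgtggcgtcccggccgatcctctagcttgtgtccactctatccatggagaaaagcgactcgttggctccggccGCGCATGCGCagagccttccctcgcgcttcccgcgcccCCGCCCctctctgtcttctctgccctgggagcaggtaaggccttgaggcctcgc

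The WT Qki-5 peak covered the whole window of *Ndufb5* and of *Sdhd*, 82.7% of that of *Atp5g2*, 62.7% of that of *Uqcrh* and 49% of that of *Cox7a2*. The Qki-5 summits of *Uqcrh*, at −451 bp from its nearest start, and *Cox7a2*, 75 bp downstream of its start, fell outside their windows. *Sdhd*, *Cox7a2* and *Atp5g2* had a GC box (GGGCGG), the element bound by Sp1, which 48% of all 20061 windows of protein-coding genes held on either strand. *Uqcrh* had a CCAAT box (CCAAT, in 37.9% of all windows) and a site for ETS factors such as GABP (CCGGAAGT, 5.37%, here on the minus strand of the gene). *Atp5g2* had the NRF1 motif (GCGCATGCG, 2.45%), which is nearly palindromic and matched on both strands in overlapping positions. The *Ndufb5* window matched none of the motifs. The YY1 motif (AAGATGGCG, 1.92%), the TATA box (TATAAA, 12.1%) and the core of the RNA element bound by Qki, written as DNA (ACTAAC, 5.39%), were in none of the 5 windows. These are matches of letters only. They were not counted over the whole set, because windows were matched for 66 of the 85 genes.

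Nearly all subunit genes carried Pol II. A promoter peak was present at 77 of 85 genes (90.6%, 95% Clopper-Pearson interval 82.3 to 95.8) in *Qk*-/- cells, where 47.0% of all protein-coding genes had one, and at 80 of 85 (94.1%, 86.8 to 98.1) in WT cells, where 54.6% did. Intervals here cover counting over genes only. *Qk*-/- Qki-5 was at 1 subunit gene, against 0.873% of all genes, and WT Qki-5 at 33 (38.8%, 28.4 to 50.0), against 19.6% of all genes. No subunit gene had a Srebp2 peak in either genotype, where 0.120% of all genes had one in *Qk*-/- cells and 0.294% in WT cells. With so few Srebp2 peaks in the lists, 0 of 85 does not separate these genes from the rest. The study describes larger sets of Qki-5 and Srebp2 peaks than these lists hold, so each count here is of the lists as used and a gene without a peak may have one in a longer list.

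**Figure D1:**
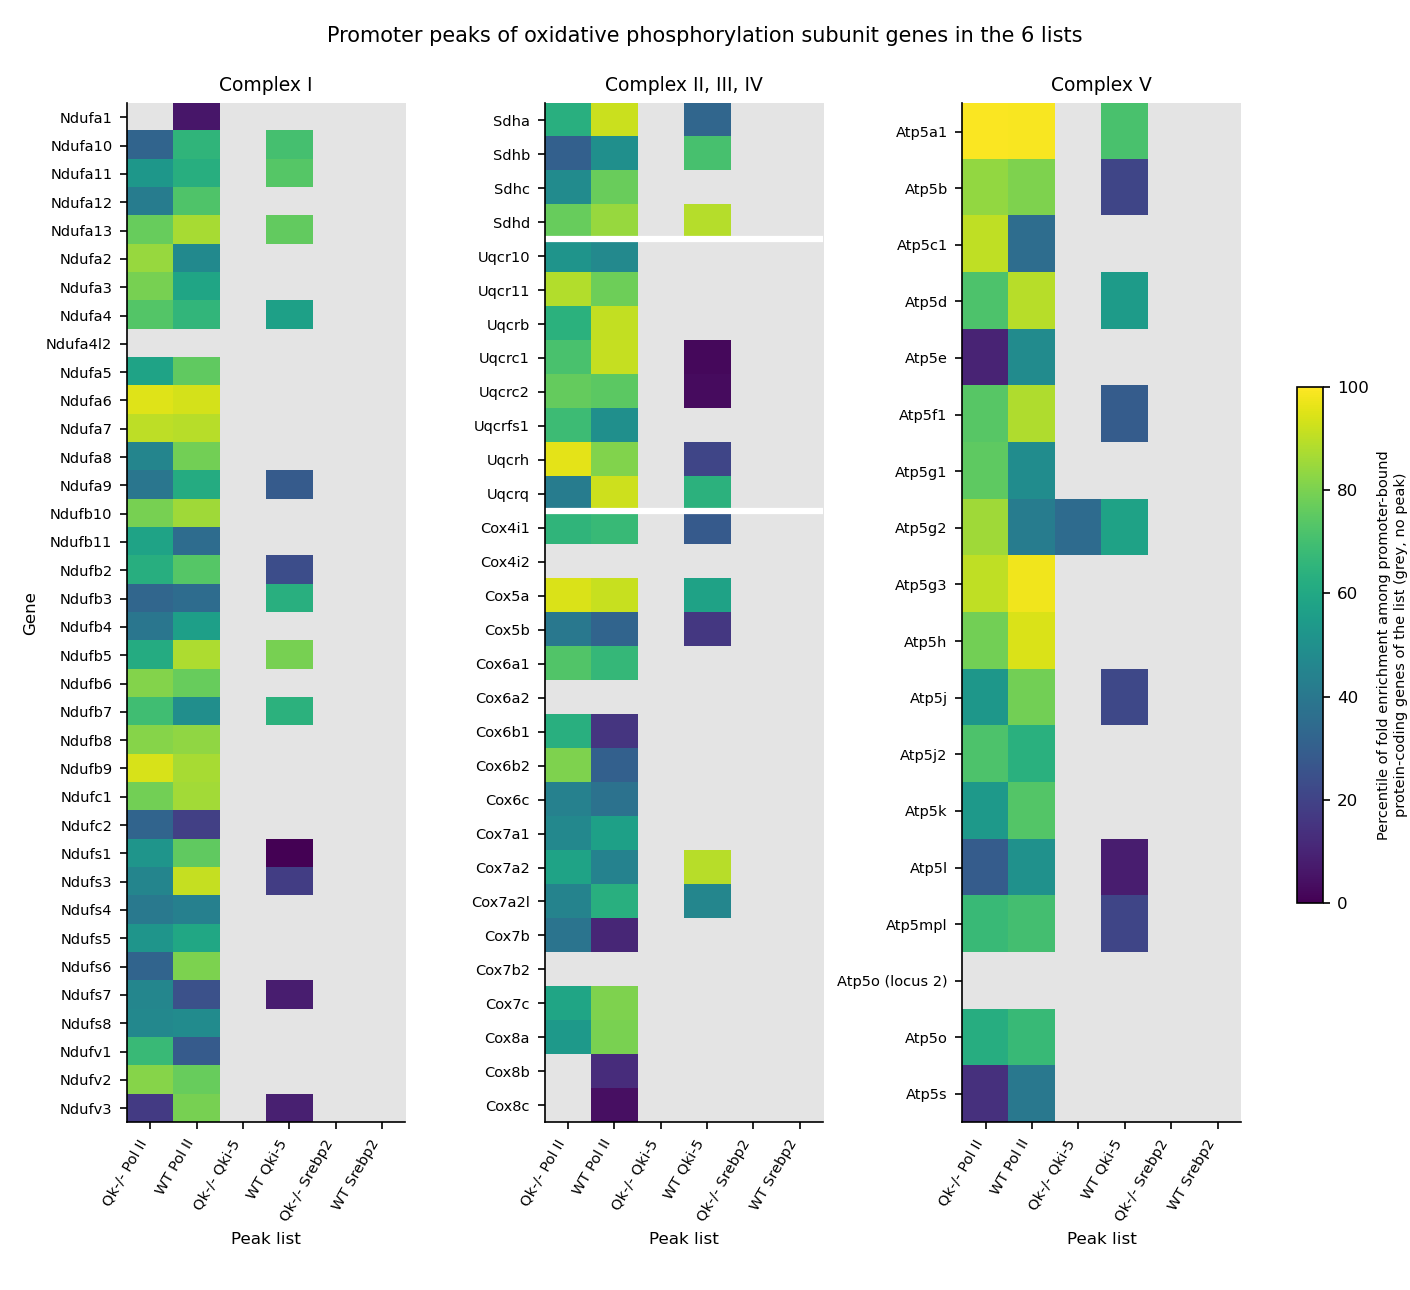
Percentile of fold enrichment (colour, 0 to 100) of the subunit genes (vertical axis, 1 gene of complex I not shown) in each of the 6 peak lists (horizontal axis), within complexes, where grey means no promoter peak. Over all subunit genes, Pol II fills most cells for *Qk*-/- (77 genes) and WT (80 genes), Qki-5 appears at *Atp5g2* alone in *Qk*-/- and at 33 genes in WT, and both Srebp2 columns are empty.

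Of the 8 isoforms made mainly in particular tissues, 2 had Pol II in *Qk*-/- cells and 4 in WT cells, against 47.0% and 54.6% of all protein-coding genes. *Cox4i2* of lung, *Cox6a2* of heart and skeletal muscle, *Cox7b2* of testis and *Ndufa4l2*, which is induced by hypoxia, had no promoter peak in any of the 6 lists. *Cox8b*, a muscle isoform, had no *Qk*-/- Pol II peak and a WT Pol II peak of 6.90-fold (rank 11560 of 32280). *Cox8c*, a testis isoform, likewise had no *Qk*-/- Pol II peak and a WT peak of 4.58-fold (rank 18794). *Cox7a1*, the muscle partner of *Cox7a2*, had Pol II peaks of 9.75-fold in *Qk*-/- cells (percentile 46.6) and 17.5-fold in WT cells (percentile 56.9), and in WT cells the peak was 3702 bp wide. *Cox6b2*, the testis partner of *Cox6b1*, had 16.3-fold in *Qk*-/- cells (percentile 80.8) and 11.3-fold in WT cells (percentile 30.8). None of the 8 had a Qki-5 peak, where 19.6% of all genes had one in WT. With 4 of the 8 carrying WT Pol II, this does not set them apart. The 1 other gene without WT Pol II at its promoter was a second locus named *Atp5o* (ENSMUSG00000116933.1, chr16:91684398-91926982, minus strand), which overlaps the 3′ end of the *Atp5o* gene proper. Without these 9 genes, 75 of 76 subunit genes had Pol II in *Qk*-/- cells and 76 of 76 in WT cells. The 9 include all 5 genes without WT Pol II and were set apart after seeing the data. The 76 of 76 therefore follows from that choice and is not a result.

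Among genes with Pol II, the subunit genes lay in the upper part of both lists. Their median fold was 12.1 in the *Qk*-/- list, against 10.2 over all genes with a peak there, and 20.9 in the WT list, against 15.8 over all. The median percentile was 63.0 in *Qk*-/- and 68.8 in WT, and 53 of 77 genes in *Qk*-/- and 54 of 80 in WT lay above the 50th percentile. The median width of their peaks was 735 bp in *Qk*-/-, against 696 bp over all bound genes, and 1818 bp in WT, against 1310 bp. The spread among the genes was large. It covered 5.54-fold to 45.4-fold in *Qk*-/- and 4.58-fold to 59.9-fold in WT.

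**Figure D2:**
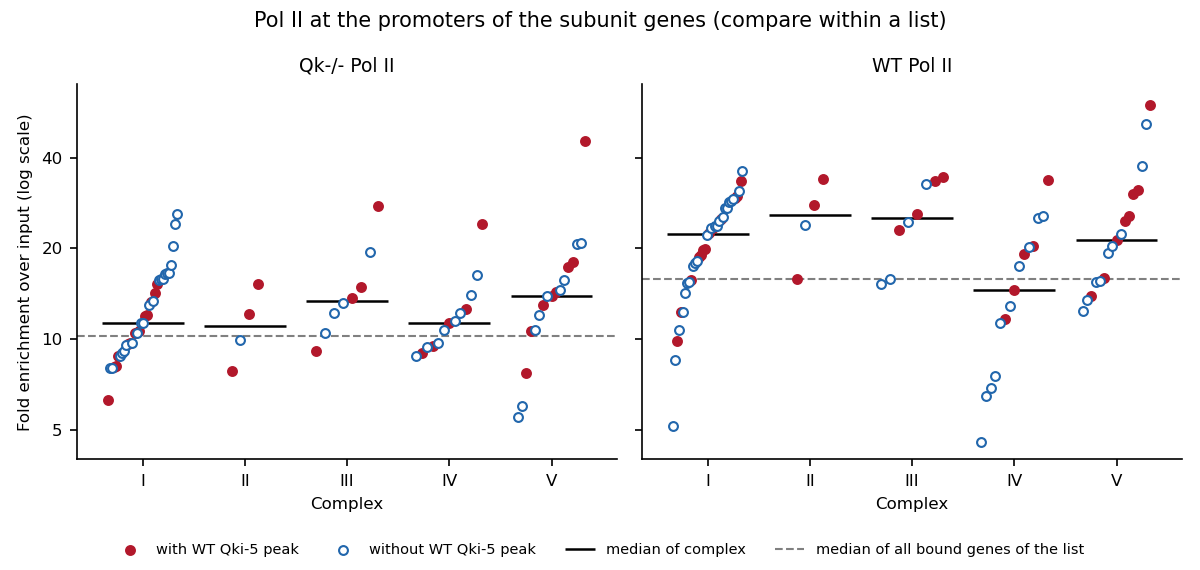
Pol II fold enrichment over input (vertical axis, log scale) of each subunit gene by complex, in the *Qk*-/- list (left) and the WT list (right). Filled points have a WT Qki-5 peak, black lines are the medians of a complex and the dashed line is the median of all bound genes of the list (10.2 and 15.8). Medians of all complexes lie above the dashed line except for complex IV in WT (14.5).

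The ATP synthase held the 3 strongest Pol II peaks of the subunit genes in WT, and the strongest in *Qk*-/-. *Atp5a1*, the α subunit of the catalytic head, had 45.4-fold in *Qk*-/- cells (rank 74 of 12835) and 59.9-fold in WT cells (rank 127 of 32280). *Atp5g3*, 1 of 3 genes that make the same c subunit of the rotor ring, had 20.9-fold in *Qk*-/- cells and 51.6-fold in WT cells (rank 219). *Atp5h*, subunit d of the peripheral stalk, had 15.7-fold in *Qk*-/- cells and 37.6-fold in WT cells (rank 615), with both summits nearest to *Kctd2*. At the low end of complex V in WT were *Atp5c1*, the γ subunit of the central shaft, with 20.7-fold in *Qk*-/- cells and 12.4-fold in WT cells, and *Atp5s*, coupling factor B, with 5.99-fold in *Qk*-/- cells and 13.4-fold in WT cells. *Atp5g2*, another c subunit gene, had 18.1-fold in *Qk*-/- cells and 13.9-fold in WT cells. The 3 genes for an identical c subunit thus differed in Pol II, since *Atp5g1* had 14.6-fold in *Qk*-/- cells and 15.6-fold in WT cells.

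In complex I the WT list was led by accessory subunits and by a core subunit. *Ndufa6* had 26.1-fold in *Qk*-/- cells and 36.0-fold in WT cells (rank 718). *Ndufs3*, a core subunit of the peripheral arm, had 9.68-fold in *Qk*-/- cells and 33.4-fold in WT cells (rank 939), with both summits nearest to *Kbtbd4*. *Ndufa7* had 20.4-fold in *Qk*-/- cells and 31.1-fold in WT cells, in a peak whose summit was nearest to *Rps28*, a ribosomal protein gene whose start lies 10 bp away on the other strand. The lowest were *Ndufc2* (8.06-fold in *Qk*-/- cells and 8.51-fold in WT cells), *Ndufs7*, the core subunit with the last iron-sulphur cluster before ubiquinone (9.73-fold in *Qk*-/- cells and 9.86-fold in WT cells), and *Ndufa1*, an X-linked accessory subunit. *Ndufa1* had no *Qk*-/- peak and 5.17-fold in WT cells (rank 16183), and it was the 1 gene outside the tissue isoforms whose WT Pol II call had no *Qk*-/- counterpart. *Ndufv1*, which holds the NADH site, was also low in WT, with 13.0-fold in *Qk*-/- cells and 10.8-fold in WT cells.

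In complex II, *Sdha*, the flavoprotein that oxidises succinate, had 12.1-fold in *Qk*-/- cells and 34.0-fold in WT cells. *Sdhd*, a membrane anchor, had 15.2-fold in *Qk*-/- cells and 27.8-fold in WT cells. *Sdhc*, the other anchor, had 9.97-fold in *Qk*-/- cells and 24.0-fold in WT cells. *Sdhb*, the iron-sulphur subunit, was lowest in both lists, with 7.87-fold in *Qk*-/- cells and 15.8-fold in WT cells. In complex III all 8 genes had Pol II in both genotypes. *Uqcrq*, a small accessory subunit, had 9.17-fold in *Qk*-/- cells and 34.4-fold in WT cells. *Uqcrc1*, a core protein, had 13.7-fold in *Qk*-/- cells and 33.4-fold in WT cells. *Uqcrb*, which takes part in ubiquinone binding, had 12.2-fold in *Qk*-/- cells and 32.8-fold in WT cells. The lowest in WT was *Uqcr10*, with 10.5-fold in *Qk*-/- cells and 15.2-fold in WT cells. Next came *Uqcrfs1*, the Rieske iron-sulphur protein, with 13.1-fold in *Qk*-/- cells and 15.8-fold in WT cells, and *Uqcrc2*, the other core protein, with 15.0-fold in *Qk*-/- cells and 23.1-fold in WT cells.

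In complex IV, *Cox5a* led with 24.1-fold in *Qk*-/- cells and 33.8-fold in WT cells (rank 901). *Cox7c* had 11.5-fold in *Qk*-/- cells and 25.7-fold in WT cells, and *Cox8a*, the general isoform beside *Cox8b* and *Cox8c*, had 10.7-fold in *Qk*-/- cells and 25.3-fold in WT cells. Beside *Cox8b* and *Cox8c*, the lowest in WT were *Cox7b*, with 8.78-fold in *Qk*-/- cells and 6.46-fold in WT cells (rank 12457), and *Cox6b1*, with 12.2-fold in *Qk*-/- cells and 7.56-fold in WT cells (rank 10748). The general isoforms were therefore not always above the tissue ones, since *Cox6b1* stood lower in the WT list than *Cox6b2*.

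The question for Qki-5 was whether it lay at these promoters more than at other promoters with Pol II. All 33 subunit genes with WT Qki-5 had Pol II in both genotypes, and of all genes with WT Qki-5, 92.2% had *Qk*-/- Pol II and 96.5% WT Pol II. Among WT Pol II-bound genes, Qki-5 was at 33 of 80 subunit genes (41.2%, 30.4 to 52.8) and at 34.6% of all such genes. By quintile of WT Pol II fold, from the lowest to the highest, 0 of 6, 3 of 9, 5 of 16, 12 of 23 and 13 of 26 subunit genes had Qki-5. Over all genes Qki-5 was also more frequent where Pol II was stronger, with 12.1% in the lowest quintile and 56.4% in the highest. The 41.2% of subunit genes stood beside 42.0% of all Pol II-bound genes when these were weighted to the quintiles that the subunit genes occupy. At a fold of at least 5 in both lists, 20.3% of subunit genes and 20.0% of all Pol II-bound genes had Qki-5. The share at subunit genes was thus near the background of genes with like Pol II.

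**Figure D3:**
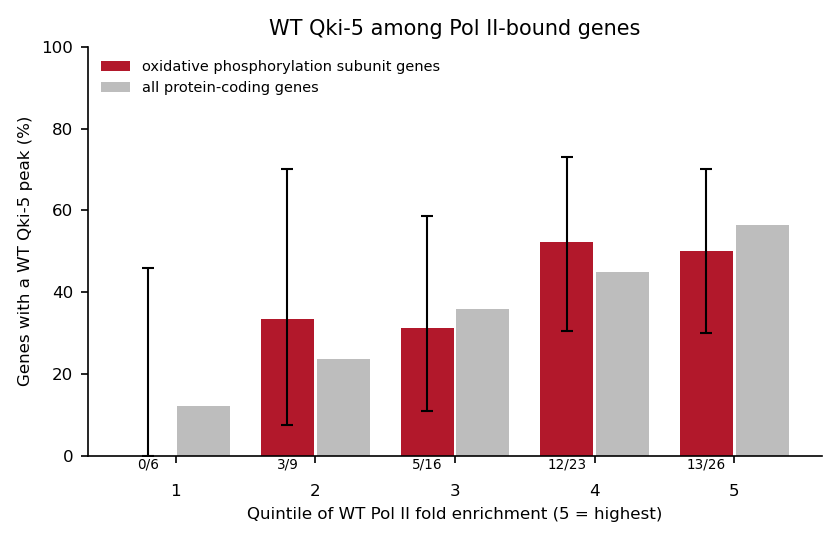
Share of genes with a WT Qki-5 promoter peak (vertical axis, percent) in each quintile of WT Pol II fold enrichment (horizontal axis, 5 is the highest) for the subunit genes (red, with 95% Clopper-Pearson intervals and counts) and for all protein-coding genes (grey). In each quintile the interval of the subunit genes contains the share of all genes, from 0 of 6 beside 12.1% to 13 of 26 beside 56.4%.

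By median, the Qki-5 peaks at subunit genes were weaker than those over all bound genes. Their median fold was 4.56, against 5.15 over all bound genes, and their median percentile was 33.1. Of the 33 genes, 3 (9.09%) had a peak in the strongest quartile of the 7539 WT Qki-5 peaks by fold, where 21.8% of all bound genes did, and 15 (45.5%) had a peak in the weakest quartile, where 28.9% did. The second quartile held 12 (36.4%), against 24.0% of all bound genes, and the third held 3 (9.09%), against 25.3%. The peaks were thus not weak throughout. At a fold of at least 5, 16 of 85 subunit genes had Qki-5 (18.8%), against 11.0% of all genes. The fold of Qki-5 and that of Pol II had a Spearman's rho of 0.03 across the 33 genes, and of 0.13 across the 4110 genes with both. These genes share 2 libraries and an input, and the coefficients are descriptions.

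The strongest was *Cox7a2*, the general isoform of a small complex IV subunit, with 7.35-fold (rank 997, chr9:79759648-79759950). *Sdhd*, the complex II anchor, had 7.30-fold (rank 1023), in a peak of 580 bp whose summit was nearest to *Timm8b*, a gene for a mitochondrial import chaperone that starts 98 bp away on the other strand. *Ndufb5*, an accessory subunit of the complex I membrane arm, had 6.45-fold (rank 1800), in a promoter that it shares with *Mrpl47*, a gene for a mitochondrial ribosomal protein. These 3 genes held the only peaks in the strongest quartile among the subunit genes.

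Among WT Pol II-bound genes, Qki-5 was at 36.1% in complex I, 75% in II, 50% in III, 33.3% in IV and 47.1% in V. The widest interval was 19.4 to 99.4, for complex II, and all 5 intervals contain the 34.6% of all Pol II-bound genes. The counts by complex below therefore do not set the complexes apart. In complex I, 13 of 37 genes had WT Qki-5 and their median percentile was 56.9. Accessory subunits came first. *Ndufa13* had 6.31-fold (rank 2057), with a summit 949 bp downstream of its start and nearest to *Tssk6*. *Ndufa11* had 6.16-fold (rank 2227), with a summit at −886 bp from its nearest start and closest to *Vmac*. *Ndufa10* had 6.04-fold (rank 2515), at 113 bp downstream of its start. *Ndufb7* and *Ndufb3*, both of the membrane arm, had 5.70-fold (rank 3028) and 5.63-fold (rank 3129). *Ndufa4*, counted here by its name although its product is now assigned to complex IV, had 5.46-fold (rank 3555). *Ndufa9* and *Ndufb2* had 4.45-fold (rank 5665) and 4.29-fold (rank 6007). Of the core subunits of the peripheral arm, *Ndufs3* had 4.07-fold (rank 6354), *Ndufs7* had 3.56-fold (rank 7025) and *Ndufs1* had 2.81-fold (rank 7500), whereas *Ndufv1*, *Ndufv2* and *Ndufs8* had no promoter peak. *Ndufv3*, an accessory subunit beside the NADH site, had 3.61-fold (rank 6943). These 3 core subunit genes thus had peaks in the weakest quartile of the list. The summits at *Ndufs3* and *Ndufs1* were nearest to *Kbtbd4* and *Eef1b2*, so those peaks may belong to the neighbours.

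In complex II, *Sdhb* had 6.04-fold (rank 2506) and *Sdha* 4.56-fold (rank 5328), so that 3 of 4 genes had Qki-5 and *Sdhc* did not. In complex III, 4 of 8 genes had Qki-5. *Uqcrq* had 5.70-fold (rank 3028), *Uqcrh*, the hinge protein next to cytochrome c1, had 4.17-fold (rank 6150), and the core proteins *Uqcrc2* and *Uqcrc1* had 3.15-fold (rank 7353) and 3.04-fold (rank 7394). Both core proteins lay below the 3rd percentile of bound genes, whereas Pol II at *Uqcrc1* was at percentile 91.3 in WT. In complex IV, 5 of 18 genes had Qki-5. After *Cox7a2* came *Cox5a* with 5.48-fold (rank 3502), in the widest Qki-5 peak of the set at 733 bp, *Cox7a2l*, which joins complexes III and IV into supercomplexes, with 5.06-fold (rank 4395), *Cox4i1*, the general isoform beside *Cox4i2*, with 4.42-fold (rank 5710), and *Cox5b* with 3.98-fold (rank 6441).

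In complex V, 8 of 18 genes had WT Qki-5. *Atp5a1* had 6.06-fold (rank 2420) and *Atp5b*, the catalytic β subunit, had 4.17-fold (rank 6150). *Atp5g2* had 5.48-fold (rank 3502), while *Atp5g1* and *Atp5g3*, the other genes for the c subunit, had no Qki-5 peak. *Atp5d*, the δ subunit of the shaft, had 5.34-fold (rank 3686). *Atp5f1*, subunit b of the peripheral stalk, had 4.47-fold (rank 5650), and *Atp5j*, coupling factor F6, had 4.19-fold (rank 6132), with a summit nearest to *Gabpa*, the gene for the DNA-binding subunit of GABP, which lies on the other strand. *Atp5mpl* and *Atp5l*, small membrane subunits, had 4.17-fold (rank 6150) and 3.56-fold (rank 7025). The strongest Pol II and the strongest Qki-5 in complex V thus met at *Atp5a1*, but *Atp5g3* and *Atp5h*, next in the WT Pol II list, had no Qki-5 peak.

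The genes with WT Qki-5 whose Pol II has not been given yet follow by complex, with Pol II folds to be read within each list. Of the complex I genes, *Ndufa13* had 15.2-fold Pol II in *Qk*-/- cells and 29.3-fold in WT cells, *Ndufa11* 10.6-fold in *Qk*-/- cells and 19.04-fold in WT cells, and *Ndufa10* 8.06-fold in *Qk*-/- cells and 19.8-fold in WT cells. *Ndufa4* had 14.2-fold Pol II in *Qk*-/- cells and 19.9-fold in WT cells, and *Ndufa9* 8.80-fold in *Qk*-/- cells and 18.7-fold in WT cells. *Ndufb5* had 12.0-fold Pol II in *Qk*-/- cells and 29.8-fold in WT cells, and *Ndufb2* 12.0-fold in *Qk*-/- cells and 22.5-fold in WT cells. *Ndufb5* and *Ndufa13* came next after *Ndufa7* in the WT order of complex I, but their WT Pol II summits were nearest to *Mrpl47* and *Tssk6*. *Ndufb7* had 13.3-fold Pol II in *Qk*-/- cells and 15.7-fold in WT cells, and *Ndufb3* 8.14-fold in *Qk*-/- cells and 12.3-fold in WT cells. *Ndufs1* had 10.5-fold Pol II in *Qk*-/- cells and 23.4-fold in WT cells, and *Ndufv3* 6.30-fold in *Qk*-/- cells and 25.1-fold in WT cells. Both Pol II summits of *Ndufs1* were nearest to *Eef1b2*. In complex III, *Uqcrh* had 27.7-fold Pol II in *Qk*-/- cells and 26.0-fold in WT cells, with both summits nearest to *Lrrc41*, and it came next after *Atp5a1* among all subunit genes in *Qk*-/-. In complex IV, *Cox4i1* had 12.6-fold Pol II in *Qk*-/- cells and 20.4-fold in WT cells, and *Cox5b* 8.98-fold in *Qk*-/- cells and 11.7-fold in WT cells. *Cox7a2* had 11.4-fold Pol II in *Qk*-/- cells and 14.5-fold in WT cells, and *Cox7a2l* 9.50-fold in *Qk*-/- cells and 19.2-fold in WT cells. *Cox7a2*, which had the strongest Qki-5 peak of the set, thus had Pol II below the median of all bound genes in WT. In complex V, *Atp5d* had 13.9-fold Pol II in *Qk*-/- cells and 31.2-fold in WT cells, *Atp5f1* 14.3-fold in *Qk*-/- cells and 30.3-fold in WT cells, and *Atp5b* 17.4-fold in *Qk*-/- cells and 25.6-fold in WT cells. Both Pol II summits of *Atp5f1* were nearest to *Wdr77*. *Atp5j* had 10.6-fold Pol II in *Qk*-/- cells and 24.7-fold in WT cells, *Atp5mpl* 13.0-fold in *Qk*-/- cells and 21.3-fold in WT cells, and *Atp5l* 7.75-fold in *Qk*-/- cells and 15.9-fold in WT cells.

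In *Qk*-/- cells, 1 of these 33 genes kept a Qki-5 call, against 4.18% of all genes with WT Qki-5. This was *Atp5g2*, with 6.30-fold in *Qk*-/- cells (rank 276 of 427, chr15:102670881-102671094) and 5.48-fold in WT cells (chr15:102670792-102671245). The *Qk*-/- peak lay inside the WT one, and its percentile was 35.0 among the bound genes of its list. Without WT Qki-5 promoter peaks that overlapped a *Qk*-/- Qki-5 peak by position, the number of subunit genes with WT Qki-5 stayed at 33, since *Atp5g2* had a further WT Qki-5 promoter peak that did not overlap one.

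At the 33 subunit genes with both, Qki-5 and Pol II shared their regions. Each of the 33 Qki-5 peaks lay wholly within a WT Pol II peak of the same gene. The share over all genes with both was not computed. Qki-5 peaks were also narrower, with a median width of 325 bp against 1818 bp for WT Pol II over the bound subunit genes. The Qki-5 summits were at a median of 40 bp downstream of the nearest start of the gene, and 25 of 33 (75.8%) were within 200 bp of it, against a median of 7 bp and 67.4% over all bound genes. *Qk*-/- Pol II summits of the 77 bound genes were at a median of 76 bp downstream, with 61 (79.2%) downstream and 16 upstream, and WT Pol II summits of 80 genes at a median of 78 bp, with 68 (85.0%) downstream and 12 upstream. Over all bound genes, 71.0% of the *Qk*-/- and 69.9% of the WT Pol II summits were downstream. Measured against the WT Pol II summit, that of Qki-5 lay upstream at 24 genes and downstream at 9, with a median of −70 bp. This distance was not measured over all genes. The offset was largest at *Ndufa11* (−974 bp) and *Atp5j* (839 bp), where the Qki-5 summit was nearer to a neighbouring gene. At *Ndufs7* (−1 bp) and *Atp5mpl* (7 bp) the summits nearly coincided.

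**Figure D4:**
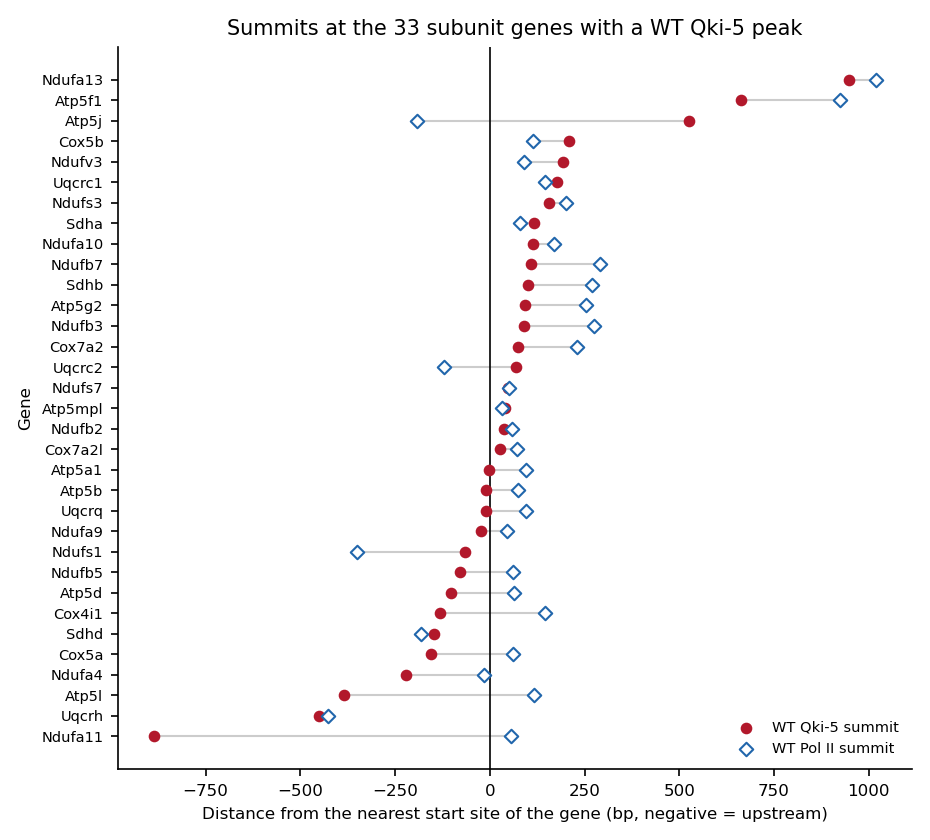
Distance of the WT Qki-5 summit (red circles) and the WT Pol II summit (blue diamonds), each from the start site of the gene nearest to it (horizontal axis, bp, negative is upstream), at the 33 subunit genes with WT Qki-5. Most Qki-5 summits lie near the start and to the left of the Pol II summit, and a few genes (*Ndufa11*, *Ndufa13*, *Atp5f1*, *Atp5j*) have summits far from it.

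The arrangement of the promoters bears on which gene a peak belongs to. A start of another annotated gene on the opposite strand within 1000 bp was present at 33 of 85 subunit genes (38.8%), against 19.5% of all protein-coding genes, and the partner was protein-coding at 27 (31.8%), against 10.6%. Such pairs joined *Ndufs6* to *Mrpl36*, *Ndufs1* to *Eef1b2*, *Uqcrh* to *Lrrc41* and *Sdha* to *Ccdc127*, beside the pairs named above. All 33 genes in such pairs had WT Pol II, against 84.6% of all genes with an opposite start, and 17 (51.5%) had WT Qki-5. Of the other subunit genes with WT Pol II, 16 of 47 (34.0%) had WT Qki-5. Over all Pol II-bound genes the shares were 41.9% with and 31.4% without an opposite start, so the step was in the same direction, and the intervals of the subunit genes (33.5 to 69.2 and 20.9 to 49.3) contain those values. Of the strongest Qki-5 peaks of the 33 genes bound in WT, 18 also lay in the promoter of another gene, and 9 had their summit nearest to another gene's start. Those 9 were at *Ndufa11*, *Ndufa13*, *Ndufs1*, *Ndufs3*, *Sdhd*, *Uqcrh*, *Cox4i1*, *Atp5f1* and *Atp5j*. The Pol II summit was nearest to another gene's start at 13 of 77 subunit genes in *Qk*-/- and at 11 of 80 in WT. Among the genes with folds given above, these were *Ndufa7*, *Ndufa13*, *Ndufs1*, *Ndufs3*, *Sdhd*, *Uqcrh*, *Atp5f1* and *Atp5h* in both lists. *Ndufb5* was such a gene in WT only, and *Ndufa11*, *Atp5b* and *Atp5j* in *Qk*-/- only. The shares of such peaks over all bound genes were not computed, so these counts do not set the subunit genes apart. When each peak was given only to the gene of the nearest start, 65 subunit genes (76.5%) had *Qk*-/- Pol II, against 40.6% of all genes, 73 (85.9%) had WT Pol II, against 47.8%, and 25 (29.4%) had WT Qki-5, against 16.5%.

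The Pol II calls largely persisted in *Qk*-/- cells. Of the 80 subunit genes with WT Pol II, 77 (96.2%, 89.4 to 99.2) also had *Qk*-/- Pol II, against 85.7% of all such genes. Weighted to the quintiles of WT Pol II fold that the subunit genes occupy, all genes would have 93.4%. The 3 genes without the *Qk*-/- call, *Cox8b*, *Cox8c* and *Ndufa1*, were all in the lowest quintile in WT, where 46.2% of all genes had the call. No subunit gene had Pol II in *Qk*-/- cells only.

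Positions within the list moved considerably between the genotypes, with *Qk*-/- minus WT percentiles running from −62.6 to 54.5 over the 77 genes. The median was −4.99 points, beside −4.30 over the 10176 genes with both peaks, and the median size of the move was 17.1 points, beside 15.0. The percentile was higher in *Qk*-/- at 32 genes (41.6%) and lower at 45, and it was higher at 40.3% of all genes with both peaks. *Ndufv3* was at percentile 16.9 in *Qk*-/- and 79.5 in WT, and *Uqcrq* at 42.0 in *Qk*-/- and 92.2 in WT. *Ndufs6* was at percentile 32.0 in *Qk*-/- and 80.2 in WT, and *Ndufs3* at 45.7 in *Qk*-/- and 91.3 in WT. Moves in the other direction were seen for a shaft subunit, a c subunit gene and both *Cox6b* isoforms. *Atp5c1* was at percentile 90.3 in *Qk*-/- and 35.8 in WT, and *Atp5g2* at 85.8 in *Qk*-/- and 41.9 in WT. *Cox6b2* was at percentile 80.8 in *Qk*-/- and 30.8 in WT, and *Cox6b1* at 63.1 in *Qk*-/- and 15.4 in WT. The genes of complex II were lower in *Qk*-/- at 4 of 4, with a median of −24.0 points, those of complex I lower at 22 of 35, those of complex III higher at 5 of 8, those of complex IV higher at 8 of 13 and those of complex V lower at 11 of 17. Ranks in the 2 lists were related at rho 0.43 over the subunit genes and 0.62 over all genes. With 1 library per genotype, these moves cannot be told apart from differences between libraries.

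**Figure D5:**
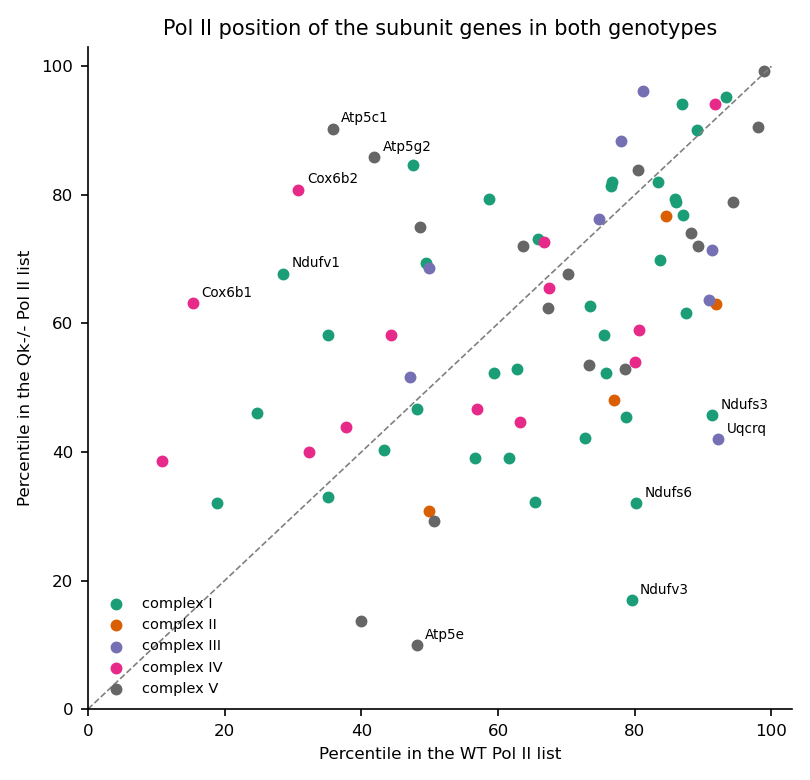
Percentile of Pol II fold enrichment in the *Qk*-/- list (vertical axis) and in the WT list (horizontal axis) for the 77 subunit genes with a peak in both, coloured by complex. Points below the dashed line of equal percentiles, 45 genes, stood lower in *Qk*-/-, and the 5 largest moves in each direction are named.

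Subunit genes with and without WT Qki-5 had like Pol II in *Qk*-/- cells, with medians of 12.0-fold over the 33 with it and 12.2-fold over the 44 without. In the WT list the medians were 23.1-fold over 33 genes with Qki-5 and 19.3-fold over 47 without. Over all genes the *Qk*-/- medians were 11.6-fold with and 9.44-fold without WT Qki-5, and the WT medians 20.2-fold with and 13.4-fold without.

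Peaks beyond the promoter, inside the gene, numbered 9 at 6 subunit genes in the *Qk*-/- Pol II list and 63 at 30 subunit genes in the WT Pol II list, which is the longer one. In *Qk*-/- these were 7.06% of the subunit genes, against 5.13% of all protein-coding genes, and in WT 35.3%, against 21.2%. All protein-coding genes include many without promoter Pol II, and the share among genes with it was not computed. *Atp5a1* and *Atp5f1* each had 5 such WT Pol II peaks, *Ndufb2* had 4 and the long second *Atp5o* locus had 6. That locus also held 4 of the 9 *Qk*-/- Pol II peaks. WT Qki-5 peaks of this kind were seen at *Atp5d* and the second *Atp5o* locus, among others. The share of subunit genes with one was below the 5.95% of all genes.

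Other genes of the pathway were listed for comparison. Of 8 subunits and carriers that the names leave out, 7 had Pol II in both genotypes. *Slc25a4*, which exchanges ADP and ATP across the inner membrane, had 44.7-fold in *Qk*-/- cells and 90.9-fold in WT cells (rank 20). *Slc25a5*, another such carrier, had 32.6-fold in *Qk*-/- cells and 60.7-fold in WT cells (rank 120). Both thus stood above every subunit gene in the WT list. *Cycs*, cytochrome c, had 14.7-fold in *Qk*-/- cells and 54.2-fold in WT cells, while *Cyct*, its testis form, had no peak. WT Qki-5 was at *Slc25a5*, *Slc25a4*, *Cycs* and *Ndufab1*, the mitochondrial acyl carrier protein, with 5.06, 4.92, 4.54 and 3.93-fold.

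Of 45 assembly factors, which build the complexes without staying in them, 42 had Pol II in *Qk*-/- cells and 45 in WT cells, and 18 (40%) had WT Qki-5. The median WT Pol II percentile was 68.8 for the subunit genes and 50.3 for the assembly factors. *Atpaf2*, a chaperone for the ATP synthase head, had the strongest Qki-5 peak among them (7.69-fold, rank 825), followed by *Cox20* (7.37-fold, rank 994) and *Coa7* (6.99-fold, rank 1250), both of complex IV assembly. *Ndufaf2*, *Coa3* and *Coa4* lacked the *Qk*-/- Pol II call, and in WT had 7.22-fold, 23.0-fold and 4.25-fold.

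All 13 genes of the citrate cycle had Pol II in both genotypes, and 3 (23.1%) had WT Qki-5, among them *Dlst* (5.10-fold) and *Mdh2* (4.78-fold). All 12 genes for regulators of mitochondrial biogenesis also had Pol II in both, and 7 (58.3%) had WT Qki-5. Among these were *Yy1* (6.66-fold), *Gabpb1* (6.16-fold), *Tfam*, the packaging factor of mitochondrial DNA (5.36-fold), *Nrf1* (5.34-fold) and *Gabpa* (4.19-fold, the peak it shares with *Atp5j*). *Ppargc1a* and *Ppargc1b*, both PGC-1 coactivators, and *Esrra* had Pol II without Qki-5, whereas *Pprc1*, a related coactivator, had WT Qki-5 of 4.51-fold. Beside the 34.6% of all Pol II-bound genes with WT Qki-5, these lists are small, and none of them had a Srebp2 peak.

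Copies of the subunit genes mostly lacked peaks. Of 11 processed pseudogenes with matching names, 1 had a Pol II peak in *Qk*-/- cells, 2 had one in WT cells and none had Qki-5. The peak of *Atp5l2-ps* was nearest to the start of *Cwc25*, and that of *Ndufa11b* (5.55-fold in WT cells) was nearest to its own. The noncoding *Ndufb1-ps* had Pol II of 13.6-fold in *Qk*-/- cells and 16.5-fold in WT cells and WT Qki-5 of 4.07-fold, all with summits nearest to *Cpsf2*.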

How the data were processed

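The 6 peak lists were deposited as called by the authors. According to the study's methods, reads were trimmed, aligned with Bowtie2 and freed of duplicates, and peaks were called against the input with MACS2 at a q-value of 0.05. Bowtie 1.2.2, MACS2 2.1.2, bcl2fastq and mm10 are listed in the submitters' processing notes. In the deposited lists, fold enrichment is a ratio of summit pileup to local background, the −log10 p-value and −log10 q-value come from MACS2, and the score deposited by the authors is an integer derived from the q-value. The smallest −log10 q was 1.31. Depth, and so the precision of a call, is unknown without read totals.

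Peaks were assigned in Python 3.11.15 (pandas 2.3.3, numpy 2.4.6) to every GENCODE M21 promoter (2000 bp on either side of a TSS) that they overlapped by at least 1 bp. Shares carry exact 95% Clopper-Pearson intervals (scipy 1.17.1). No significance test was made. Promoter sequences came from RefSeq (GRCm38.p6), matched by symbol. Any subunit gene could be named, but a few items are not reported here. Values are given in full for those with WT Qki-5, without WT Pol II, with WT Pol II but no *Qk*-/- Pol II, with *Qk*-/- Qki-5 or Srebp2, and for the 3 highest and 3 lowest WT Pol II folds of each complex. Genes, lists and markers were chosen with earlier results of these data known. Alternatives tried were a fold of at least 5, a q-value under 0.01, windows of 1000 and 2500 bp, summits inside the promoter, the nearest TSS only, −log10 q in place of fold, and all promoter peaks as background. Leaving out the tissue isoforms with the second *Atp5o* locus, and dropping WT Qki-5 peaks with a *Qk*-/- Qki-5 peak at the same place, were chosen after seeing the data. The assignment was tested on simulated data. Figures were drawn with matplotlib 3.10.9.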

Additional observations from a re-analysis of the deposited data

How the results depend on the processing

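Of 51 recomputed values, 48 moved by less than their counting interval or 1.5-fold. The number of subunit genes with WT Qki-5 was 16 at a fold of at least 5, the share of Pol II-bound subunit genes with Qki-5 was 20.3% there, and the share of WT Pol II-bound subunit genes with *Qk*-/- Pol II was 87.7% with the nearest TSS only (81.6% over all genes). The 48 include 2 Pol II counts with the nearest TSS only that moved by less than 1.5-fold but left their main intervals. These were 76.5% in *Qk*-/- (interval 82.3 to 95.8) and 85.9% in WT (86.8 to 98.1). Counting motifs in windows cut from the genome was planned and not run, and the count over RefSeq windows was void, since 77.6% of the genes had one. No paired analysis was possible because each antibody and genotype had 1 library. Depth is unknown, so a weak promoter can lack a call for want of reads, most of all in the shorter *Qk*-/- lists.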
